A study of Mus musculus with 8 samples.

Results

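The 44 genes described here encode proteins that carry a cell through mitosis: cyclins and cyclin-dependent kinase 1, mitotic kinases, spindle checkpoint proteins, the chromosomal passenger complex, centromere and kinetochore proteins, spindle motors and the machinery of mitotic exit. They were chosen by gene name, and each was read from its brightest 60-base probe. All 44 passed the filter on dim probes, which asked for a signal well above background on the 2 arrays of some group, and so were among the 20615 genes tested. RNA came from 1676 cells, a mouse pre-B line that lacks the adaptors SLP-65 and LAT (SLP-65-/- LAT-/-). The cells carried a retroviral vector, either a control or one encoding hsa-miR-125b-1 (a human microRNA gene), and were puromycin-selected at 1 µg/ml and grown in 7.5% FCS. They were harvested in the presence of interleukin-7 (IL-7), the growth factor of this line, or 24 h after it was taken away. The 4 groups are thus control with IL-7, miR-125b with IL-7, control without IL-7 and miR-125b without IL-7, with 2 single-colour arrays each, from separately derived clones.

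Mitosis begins when cyclin B bound to CDK1 is activated by CDC25 phosphatases, and ends when the anaphase-promoting complex, with its activator CDC20, marks cyclin B and securin for destruction. In between, kinetochores tie chromosomes to spindle microtubules while checkpoint proteins hold back anaphase until every chromosome is attached. Many of these genes are transcribed late in the cell cycle through promoters that hold a CCAAT box and a cell cycle genes homology region (CHR), and their mRNA levels are widely read as a mark of dividing cells. Pre-B cells divide in response to IL-7.

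A single slide, scanned once, carried the 4 arrays with IL-7 and a second slide the 4 without. Per the file headers, the grid and the version of the Agilent Feature Extraction software also differed between these slides. For withdrawal the effects of IL-7, slide, scan, grid and software version thus cannot be told apart. The vectors were compared within a slide, where they took different slide columns. On the first slide the arrays' 75th percentiles ran from 325 to 379, with 606 to 722 on the second, in units of linear signal, and 47.7% to 54.8% of probes were well above background. Levels below are log2 signal minus the log2 75th percentile of the same array, and they are set against each other within a gene only. All 11 pre-B and B-lineage markers were well above background on all 8 arrays, with a summed linear level of 1713 to 2239 times the 75th percentile. The summed level of the markers of other cells was 10.67 to 14.3 for 7 myeloid genes, 3.62 to 5.92 for 6 T and NK genes, 1.38 to 2.04 for 4 plasma cell genes and 0.0857 to 0.216 for 5 stromal genes. Fewer cells in mitosis and less of an mRNA per cell cannot be told apart in RNA from whole cultures.

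Several of these markers moved with the comparisons. The summed level was 2131 to 2239 with IL-7 and 1713 to 1747 without it for the B-lineage genes, and 3.62 to 4.44 and 5.63 to 5.92 for the T and NK genes. Both sums are weighted to the brightest genes, and without IL-7 the brightest T and NK gene was Cd8a. Of the 11 B-lineage markers, 4 were called higher and 3 lower on withdrawal in control cells, where 20.2% of all genes were called higher and 34% lower. In miR-125b cells 3 were higher and 5 lower (20.5% and 32%). In control cells Vpreb1 stood at 9.34 and 9.28 with IL-7 and 8.74 and 8.60 without it. Rag1 stood at 1.01 and 1.30 with it and 3.93 and 4.15 without it. Cd8a stood at −6.06 and −6.90 in control cells with IL-7, −6.99 and −6.97 in miR-125b cells with IL-7, 1.63 and 1.53 in control cells without it, and 1.61 and 1.69 in miR-125b cells without it, and was well above background on the 4 arrays without IL-7 and on none with it. Of the 4 T and NK markers tested on withdrawal, 1 was called higher and 2 lower in control cells, and 1 higher and 1 lower in miR-125b cells. Cd4 stood at 1.32 and 1.35 in control cells with IL-7 and 0.92 and 1.02 without it. In miR-125b cells it stood at 0.96 and 0.91 with IL-7 and 0.94 and 0.75 without it. Cd3e was lower without IL-7, at −1.44 (SE 0.15, limma adjusted p = 0.0016) in control and −1.52 (SE 0.15, limma adjusted p = 0.0019) in miR-125b cells, and was called under all 6 scalings and background corrections. In the vector average Cd4 was at −0.26 (SE 0.06, limma adjusted p = 0.0459) and Klrb1c at −0.44 (SE 0.07, limma adjusted p = 0.0141), called under 4 and 5 of the 6. The erythroid marker Epor stood at −4.14 and −4.22 in control cells with IL-7, −3.24 and −3.57 in miR-125b cells with IL-7, −3.01 and −3.53 in control cells without it, and −2.33 and −2.49 in miR-125b cells without it, and was higher in miR-125b cells by 0.82 (SE 0.14, limma adjusted p = 0.0184) on average, called under all 6, whereas Klf1 was not called (0.053). The markers Cd3g, Ncr1, Ly6g, Col1a1, Dcn and Pdgfrb were on no array well above background. The part of these markers in the members' values was not tested.

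A promoter sequence was matched by symbol for 36 of the 44 genes in the RefSeq table for GRCm38.p6, which gives 250 bases before and 50 after each gene's start. The table held none for Ccna2, Aurkb, Kif20a, Tpx2, Incenp, Foxm1, Spc24 and Cdc25c. Counts are of genes, and where a gene had several windows a match in any of them counted. The 6 letters of the CHR, TTTGAA on either strand, occurred in 25 of the 36 genes, or 69.4% (exact binomial 95% interval 51.9% to 83.7%). They occurred in 20.2% of the 27025 genes with a promoter in the table. The CCAAT box, CCAAT on either strand, occurred in 29 (80.6%, against 41.1% of all these genes). An E2F-type GGCGGGA on either strand occurred in 10 (27.8%, against 12.7%). Both CHR and CCAAT letters occurred in 23 of the 36 genes (63.9%), against 8.97% of all genes with a promoter. In the last 150 bases of each window the CHR shares were 66.7% and 9.23%. None of these motifs lies within another, but neighbouring matches can share letters. A match describes the sequence without showing that a factor binds it.

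The 120 bases before the gene's start are shown for 6 of the members whose CHR letters lie within 30 bases of the start. They were picked to show the letters near the start and do not stand for all 36 genes, of which 11 hold no CHR. Capitals mark TTTGAA or its reverse complement TTCAAA, and CCAAT or its reverse complement ATTGG. The windows read 5′ to 3′ along the gene's strand. Ccnf (F-box cyclin F) lies at chr17:24251410-24251529 on the minus strand, Cdk1 (the mitotic kinase) at chr10:69352913-69353032 on the minus strand, and Kif11 (the kinesin that pushes spindle poles apart) at chr19:37376262-37376381 on the plus strand. Top2a (topoisomerase II alpha) lies at chr11:99024190-99024309 on the minus strand, Ube2c (the ubiquitin-conjugating enzyme of the anaphase-promoting complex) at chr2:164769809-164769928 on the plus strand, and Espl1 (separase) at chr15:102296173-102296292 on the plus strand.
Ccnf: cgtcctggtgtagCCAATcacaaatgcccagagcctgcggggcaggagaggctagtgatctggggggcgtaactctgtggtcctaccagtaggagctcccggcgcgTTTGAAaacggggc
Cdk1: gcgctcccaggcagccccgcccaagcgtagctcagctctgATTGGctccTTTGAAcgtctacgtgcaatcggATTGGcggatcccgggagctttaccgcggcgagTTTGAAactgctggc
Kif11: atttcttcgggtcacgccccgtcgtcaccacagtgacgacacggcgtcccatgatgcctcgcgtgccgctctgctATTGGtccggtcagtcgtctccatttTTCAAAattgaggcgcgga
Top2a: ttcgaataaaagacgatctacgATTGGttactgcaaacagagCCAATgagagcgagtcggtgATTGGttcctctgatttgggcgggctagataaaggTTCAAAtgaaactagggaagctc
Ube2c: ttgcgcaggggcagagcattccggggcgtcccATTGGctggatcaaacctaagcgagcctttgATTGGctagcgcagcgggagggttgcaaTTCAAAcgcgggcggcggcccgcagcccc
Espl1: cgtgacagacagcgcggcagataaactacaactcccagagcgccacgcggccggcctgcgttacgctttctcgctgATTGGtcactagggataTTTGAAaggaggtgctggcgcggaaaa
The CHR nearest to the start begins 14 bases before it in Ccnf, 15 in Cdk1, 19 in Kif11, 23 in Top2a, 27 in Espl1 and 29 in Ube2c. The microRNA of the vector acts by pairing of its seed, bases 2 to 8, with target mRNAs, and the mature mouse sequence in RefSeq, mmu-miR-125b-5p, is shown with its seed in capitals.
mmu-miR-125b-5p: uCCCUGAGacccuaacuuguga
The level of the microRNA and its sites in the members' mRNAs were not analysed here.

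The mRNAs of cyclin F, of the kinetochore proteins NDC80 and SPC25 and of 8 further members were lower in miR-125b cells than in control cells when both culture conditions were averaged and arrays were scaled to the 75th percentile. All 11 were below 0 in that average under each of the 18 alternatives tried, but none passed the test when arrays were scaled to the array median, where Ccnf was at −0.36, Ndc80 at −0.27 and Spc25 at −0.24. Ccnf, whose product is the substrate receptor of an SCF ubiquitin ligase that acts in G2, was read at 5.42 and 5.37 in control cells with IL-7, 5.03 and 4.94 in miR-125b cells with IL-7, 5.49 and 5.48 in control cells without it, and 4.83 and 4.98 in miR-125b cells without it. All 4 miR-125b arrays lay below all 4 control arrays. The fitted difference, miR-125b minus control, was −0.41 (SE 0.08, limma adjusted p = 0.0668) with IL-7, −0.58 (SE 0.08, limma adjusted p = 0.0223) without it and −0.50 (SE 0.06, limma adjusted p = 0.00761) on average.

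Ndc80, the namesake subunit of the complex that grips microtubules at the kinetochore, had levels of 3.59 and 3.71 in control cells with IL-7, 3.23 and 3.16 in miR-125b cells with IL-7, 3.797 and 3.79 in control cells without it, and 3.36 and 3.50 in miR-125b cells without it. Spc25, which with SPC24 anchors the same complex to the inner kinetochore, stood at 6.89 and 6.90 in control cells with IL-7, 6.50 and 6.42 in miR-125b cells with IL-7, 6.77 and 6.82 in control cells without it, and 6.49 and 6.46 in miR-125b cells without it. For both genes the 4 miR-125b arrays again lay below the 4 control arrays. The average difference was −0.41 (SE 0.06, limma adjusted p = 0.0125) for Ndc80 and −0.38 (SE 0.05, limma adjusted p = 0.00955) for Spc25. Within the cultures with IL-7, Spc25 was at −0.43 (SE 0.07, limma adjusted p = 0.0437) and Ndc80 at −0.46, which did not pass (adjusted p = 0.0583). The probes lie at chr17:24360204-24360263 (Ccnf), chr17:71860793-71861755 (Ndc80) and chr2:69031953-69032012 (Spc25) in mm9.

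By count, Spc25 was the only member called with IL-7 (a call lost under 15 of 19 alternatives), where limma called 2.63% of all genes, 1.49% lower and 1.14% higher. Ccnf was the only member called without IL-7, where 6.47% of all genes were called, 3.51% lower and 2.95% higher. With any 1 of the 8 arrays left out, the members' median relative to all genes was −0.19 to −0.084 with IL-7 and −0.17 to −0.089 without it. Averaged over the conditions, 11 members were called lower and 0 higher, and 33 did not pass. Over all genes 15.9% were called in that average, 8.63% lower and 7.29% higher. The 8 called besides Ccnf, Ndc80 and Spc25 were the phosphatase gene Cdc25b (−0.34), the kinetochore motor gene Cenpe (−0.32), Nusap1 (−0.28), Incenp (−0.27), Aurka (−0.26), Kif11 (−0.25), Kif20a (−0.24) and Ccnb2 (−0.22). The median over the members was −0.15, against −0.025 over all genes, and 41 of the 44 members had a fold change below 0. The size of these differences rests on the scaling. With each array scaled to its own median, 0 members were called, where 2.7% of all genes were called lower (limma, with 6235 of all genes at an unadjusted p under 0.05) and the member median was −0.0079, whereas the median of all genes moved to 0.12. Relative to all genes the members' median was −0.12 under both scalings, and −0.15 with quantile normalization, which called 10 members and 9.08% of all genes lower. Without the filter on dim probes it was −0.028, and 3 members and 2.63% of all genes were called lower. Of the 11 calls in the average, 7 were lost under more than 50% of the alternatives, whereas those of Ccnf and Spc25 were each lost under 1 and that of Ndc80 under 2. With any 1 of the 8 arrays left out, the members' median relative to all genes was −0.15 to −0.094 in the average.

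**Figure D1:**
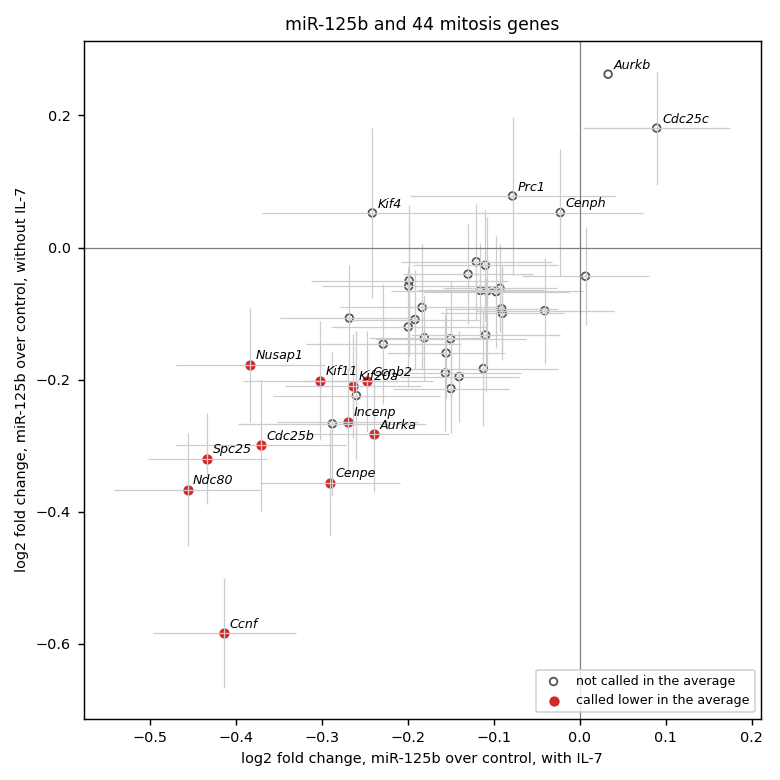
Difference between miR-125b and control cells for the 44 genes, with IL-7 on the horizontal axis and without IL-7 on the vertical axis, as log2 fold changes from signals scaled to the 75th percentile. Points are genes and bars 1 SE (not drawn for Aurkb, whose probe is dim), filled points are the 11 called lower in the average, and Ccnf lies lowest at −0.41 and −0.58; scaled to the array median, 0 members are called.

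Over the 44 genes, the vector differences in cultures with and without IL-7, which rest on separate arrays, correlated at r = 0.797 and rho = 0.755. The r was 0.781 without the dim Aurkb probe and 0.556 over all genes. The brightest decile of genes held 21 of the 44 members, and the part of brightness in this contrast with all genes was not tested. The withdrawal differences of control and miR-125b cells correlated at r = 0.961 and rho = 0.923 over the 44, at r = 0.929 without the dim Aurkb probe and at r = 0.89 over all genes. These are correlations across genes, which are not independent replicates, and the arrays of each condition share a slide in both.

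After IL-7 was taken away, and on a different slide, Cenph, Cdc20 and Tpx2 were lower and Cenpf higher at the 75th percentile scaling. Of these 4, Cenph was called lower under all 6 scalings and background corrections, while Cdc20 was at −0.014 in control and −0.013 in miR-125b cells with quantile normalization and was not called. Cenph, a subunit of the constitutive centromere network, was read at 4.51 and 4.40 in control cells with IL-7, 4.38 and 4.47 in miR-125b cells with IL-7, 3.86 and 3.92 in control cells without it, and 3.85 and 4.04 in miR-125b cells without it. Cdc20, which switches on the anaphase-promoting complex, was read at 7.19 and 7.14 in control cells with IL-7, 7.09 and 7.06 in miR-125b cells with IL-7, 6.64 and 6.64 in control cells without it, and 6.56 and 6.54 in miR-125b cells without it. For both, all 4 arrays without IL-7 lay below all 4 arrays with it. The difference, without minus with IL-7, was −0.56 (SE 0.10, limma adjusted p = 0.00525) in control cells and −0.48 (SE 0.10, limma adjusted p = 0.00913) in miR-125b cells for Cenph. It was −0.52 (SE 0.07, limma adjusted p = 0.00221) and −0.52 (SE 0.07, limma adjusted p = 0.00267) for Cdc20.

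Tpx2, whose product nucleates spindle microtubules and activates Aurora A, had levels of 5.06 and 4.999 in control cells with IL-7, 4.95 and 4.88 in miR-125b cells with IL-7, 4.48 and 4.57 in control cells without it, and 4.45 and 4.47 in miR-125b cells without it. Its 4 arrays without IL-7 lay below the 4 with it, at differences of −0.50 (SE 0.07, limma adjusted p = 0.00314) and −0.45 (SE 0.07, limma adjusted p = 0.00481). A further probe of Tpx2 gave 0.087 and −0.013, so the call rests on the brighter probe. Cenpf, a large kinetochore and nuclear matrix protein that accumulates in G2, was read at −1.45 and −1.25 in control cells with IL-7, −1.49 and −1.53 in miR-125b cells with IL-7, −0.87 and −0.87 in control cells without it, and −1.04 and −1.08 in miR-125b cells without it. All 4 arrays without IL-7 lay above those with it, at 0.48 (SE 0.09, limma adjusted p = 0.00629) in control cells and 0.45 (SE 0.09, limma adjusted p = 0.0086) in miR-125b cells. Probe positions in mm9 are chr13:101534182-101536833 (Cenph, a span longer than the probe), chr4:118105534-118105593 (Cdc20), chr2:152719476-152719535 (Tpx2) and chr1:191464978-191465037 (Cenpf).

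In control cells 12 members were called lower, 1 higher and 31 not, where 54.3% of all genes were called (34% lower and 20.2% higher). In miR-125b cells 11 were called lower, 1 higher and 32 not, where 52.5% of all genes were called (32% lower and 20.5% higher). The share of members called was 29.5% and 27.3%, and their medians, −0.12 and −0.080, were close to the medians of all genes, −0.13 and −0.11. Of the calls, 6 of 13 in control cells and 6 of 12 in miR-125b cells changed sign under at least 1 alternative. Quantile normalization, which gives all arrays the same distribution, called 20 members higher and 3 lower in control cells and 22 higher and 1 lower in miR-125b cells, at medians of 0.22 and 0.25. Of all genes it called 23.8% higher and 27.8% lower in control cells and 22.6% and 24.4% in miR-125b cells. The authors' deposited table, whose columns share 1 distribution, gave the same counts of members, and of all genes 23.8% higher and 27.8% lower in control cells and 22.8% and 24.3% in miR-125b cells. Scaling to the array median called 0 higher and 30 lower in control cells and 0 higher and 17 lower in miR-125b cells, at −0.46 and −0.33, where the shares of all genes were 10.4% higher and 51.1% lower in control cells and 12.1% and 42.8% in miR-125b cells. The 75th percentile over probes above background on all arrays called 7 members higher and 5 lower, and 10 higher and 4 lower, where the shares of all genes were 26.8% higher and 26.5% lower in control cells and 27.7% and 23.1% in miR-125b cells. Normexp background correction called 7 members higher and 8 lower in each cell type, where the shares of all genes were 16.1% higher and 47.4% lower in control cells and 15.9% and 47.5% in miR-125b cells.

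**Figure D2:**
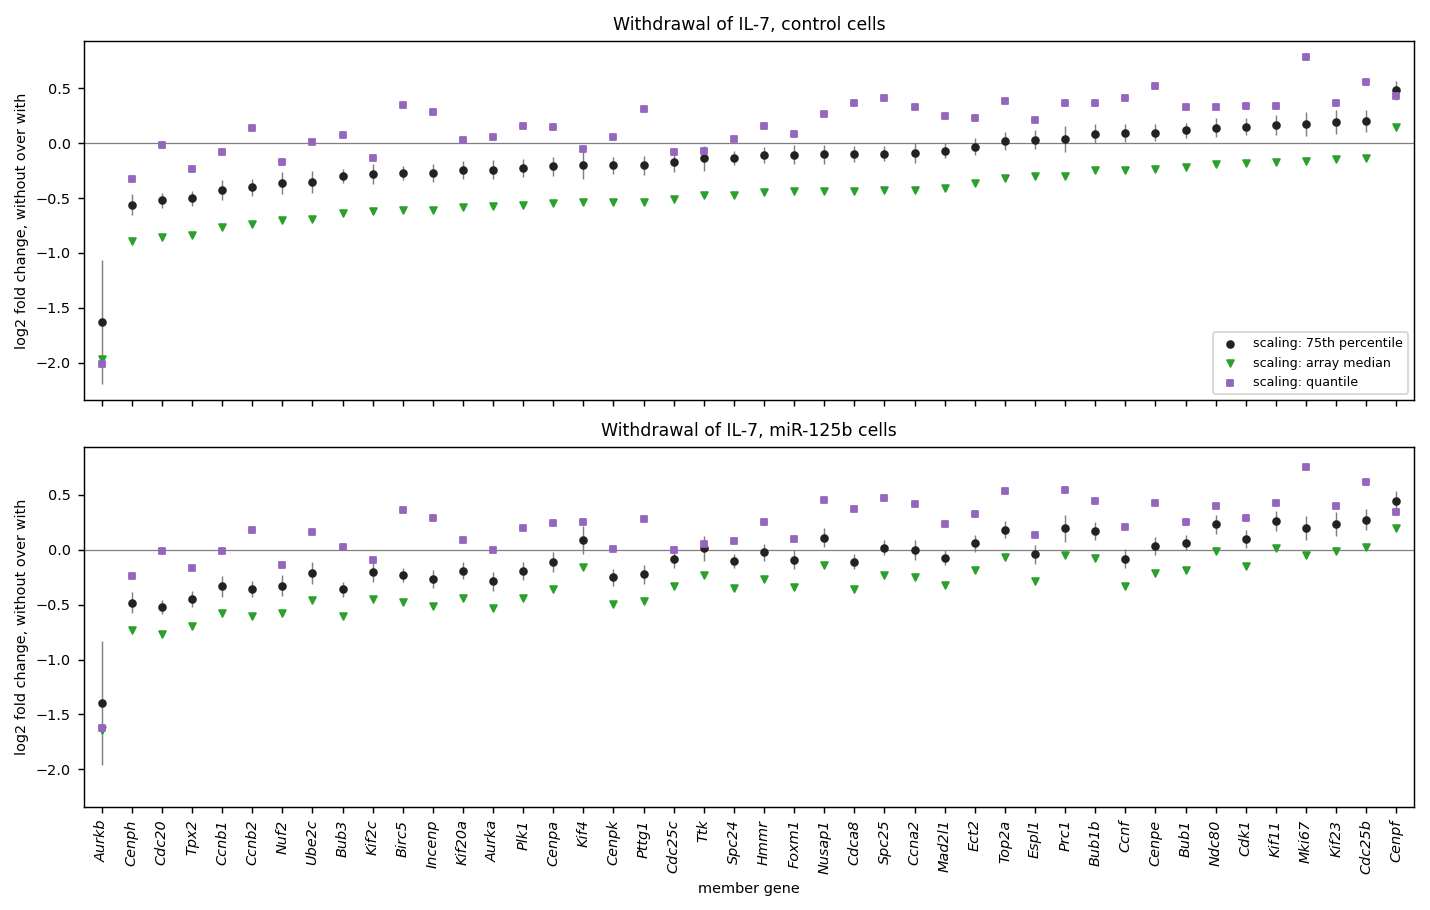
Difference without minus with IL-7 for each of the 44 genes in control cells (top) and miR-125b cells (bottom), as log2 fold changes under 3 scalings of the arrays, with 1 SE for the 75th percentile. Cenph stays below 0 and Cenpf above 0 under all 3, while Birc5 moves from −0.27 (75th percentile) to 0.35 (quantile) and −0.61 (array median) in control cells.

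Brightness moved with the withdrawal difference over all genes. The median difference in control cells was 0.49 in the dimmest decile of genes and −0.54 in the brightest, and the brightest decile of 2062 genes held 21 of the 44 members. In that decile 73.5% of genes were called lower in control cells and 72.2% in miR-125b cells. Of the 21 members there, 7 were called lower in each, and their medians were −0.20 and −0.11, against −0.54 and −0.52 over the whole decile. The part of brightness in the members' values was not tested. In both cell types Cenph was called lower under all 19 alternatives tried, each a change of scaling, background correction, filter, probe choice, variance model or array set. Cenpf was called higher in control cells under 18 of 19 alternatives and in miR-125b cells under 17, and was above 0 in all of them. Its only probe was dim, at a mean linear signal of 236. In control cells dim probes of Kif23 (181) and Ect2 (189) were at 1.26 and 0.98, against 0.19 and −0.031 at their brighter probes. Dim probes of Cdk1 (124 and 31.9) went the other way, at −0.28 and −0.99, against 0.15. Of the other members called lower in control cells, Tpx2 was lost under 1 alternative, and Ccnb2 and Cdc20 under 2. When any 1 array was left out, the members' median was −0.16 to −0.080 in control cells and −0.12 to −0.027 in miR-125b cells. Relative to all genes it was −0.018 to 0.033 in control cells and −0.013 to 0.092 in miR-125b cells. Counts of members called are not given for these fits, since calls over all genes changed too.

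Ranks within an array do not depend on a common scaling factor. By rank among the 20615 genes, 33 members stood higher without IL-7 than with it in control cells and 34 in miR-125b cells, out of 44, while 47.6% and 47.5% of all genes did. The median change was 0.73 and 0.94 percentile points. Cenph moved down from percentile 84.8 to 82.4 in control cells and from 84.7 to 82.9 in miR-125b cells. Tpx2 moved from 88.4 to 86.8 and from 87.6 to 86.5, and Cenpf moved up from 39.1 to 42.5 and from 38.2 to 40.8. Cdc20 barely moved in rank, from 96.0 to 95.9 and from 95.7 to 95.7. For the vector, 41 members ranked lower and 3 higher in miR-125b cells with IL-7, and 39 lower and 5 higher without it, at medians of −0.78 and −0.49 percentile points, where 47.5% and 49.9% of all genes ranked higher.

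**Figure D3:**
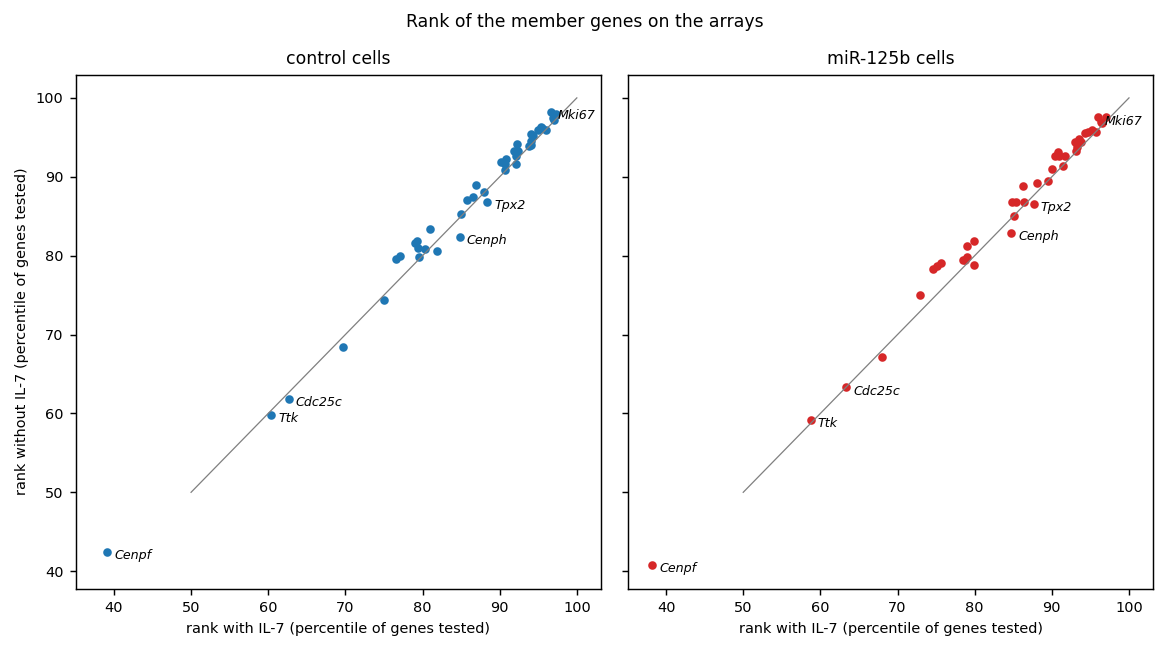
Rank of each member among the 20615 genes tested, as a percentile, with IL-7 (horizontal) and without it (vertical), as the mean of 2 arrays, in control cells (left) and miR-125b cells (right). The diagonal marks an equal rank, Cenph and Tpx2 lie below it, and Cenpf lies above it at percentile 39.1 and 42.5 in control cells; Aurkb is not drawn because its probe is dim.

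Among the cyclins and the activators of CDK1, cyclin B transcripts were lower without IL-7 at the 75th percentile scaling. Ccnb1, the main mitotic cyclin, was read at 5.91 and 5.82 in control cells with IL-7, 5.75 and 5.62 in miR-125b cells with IL-7, 5.41 and 5.47 in control cells without it, and 5.26 and 5.44 in miR-125b cells without it. Ccnb2, its relative, was read at 7.68 and 7.58 in control cells with IL-7, 7.43 and 7.34 in miR-125b cells with IL-7, 7.23 and 7.23 in control cells without it, and 7.003 and 7.05 in miR-125b cells without it. In both genes the 4 arrays without IL-7 lay below the 4 with it. Ccnb1 differed by −0.43 (SE 0.10, limma adjusted p = 0.0128) in control and −0.33 (SE 0.10, limma adjusted p = 0.03) in miR-125b cells, and by −0.078 and −0.0083 with quantile normalization, which did not pass. Its further probes gave −0.41 and −0.57 in control cells. Ccnb2 differed by −0.40 in control and −0.36 in miR-125b cells, both called, but turned to 0.14 and 0.18 with quantile normalization.

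Cdk1, their kinase partner, stayed at 3.75 and 3.60 in control cells with IL-7, 3.67 and 3.60 in miR-125b cells with IL-7, 3.81 and 3.85 in control cells without it, and 3.72 and 3.75 in miR-125b cells without it. The arrays without IL-7 lay slightly above those with it in each cell type, at 0.15 in control and 0.098 in miR-125b cells, neither of which passed, and at 0.34 and 0.29 with quantile normalization. Dimmer probes of Cdk1 gave −0.28 and −0.99 in control and 0.042 and −0.30 in miR-125b cells. Foxm1, a transcription factor of G2/M genes, was read at 3.73 and 3.88 in control cells with IL-7, 3.73 and 3.58 in miR-125b cells with IL-7, 3.69 and 3.71 in control cells without it, and 3.54 and 3.58 in miR-125b cells without it. Its differences on withdrawal were −0.10 in control and −0.091 in miR-125b cells, and were not called. Cdc25b, a phosphatase that activates CDK1, was read at 5.80 and 5.98 in control cells with IL-7, 5.61 and 5.43 in miR-125b cells with IL-7, 6.11 and 6.08 in control cells without it, and 5.75 and 5.84 in miR-125b cells without it. Within each condition its miR-125b arrays lay below its control arrays, by −0.34 (SE 0.07, limma adjusted p = 0.0304) on average. On withdrawal Cdc25b was at 0.20 in control and 0.28 in miR-125b cells (adjusted p = 0.128 and 0.0597). Ccna2, cyclin A2, and Cdc25c, another of these phosphatases, were called in no comparison; after Aurkb, Cdc25c had the highest value of a member in the vector average, 0.14 (adjusted p = 0.186).

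Of the mitotic kinases, Plk1, which drives centrosome maturation and mitotic entry, was read at 6.47 and 6.37 in control cells with IL-7, 6.37 and 6.28 in miR-125b cells with IL-7, 6.14 and 6.26 in control cells without it, and 6.09 and 6.17 in miR-125b cells without it. Without IL-7 its arrays lay below those with it in each cell type, at −0.22 in control and −0.19 in miR-125b cells, which did not pass (adjusted p = 0.0673 and 0.103). Aurkb, the kinase of the passenger complex, has 1 probe on the array, a dim one, at −4.14 and −3.62 in control cells with IL-7, −3.85 and −3.85 in miR-125b cells with IL-7, −6.17 and −4.85 in control cells without it, and −4.60 and −5.89 in miR-125b cells without it. It was well above background on all 4 arrays with IL-7, on neither array of control cells without it and on 1 of 2 of miR-125b cells without it. The probe thus passed the filter on dim probes through the groups with IL-7 alone, where it is higher, so its lower signal without IL-7 is given as a description, with no test. Aurka, the centrosomal Aurora kinase, was called lower on withdrawal in miR-125b cells (−0.29, or 0.0029 with quantile normalization) and not in control cells (−0.24). Bub1 and Ttk, checkpoint kinases, were at 0.12 and −0.14 in control cells and 0.063 and 0.013 in miR-125b cells, with 0 calls in either comparison.

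In the spindle checkpoint, Bub1b, which encodes the inhibitor BUBR1, was read at 4.80 and 4.77 in control cells with IL-7, 4.70 and 4.65 in miR-125b cells with IL-7, 4.82 and 4.93 in control cells without it, and 4.77 and 4.92 in miR-125b cells without it. Mad2l1, the checkpoint protein that sequesters CDC20, was read at 5.52 and 5.47 in control cells with IL-7, 5.36 and 5.32 in miR-125b cells with IL-7, 5.39 and 5.46 in control cells without it, and 5.25 and 5.28 in miR-125b cells without it. Neither was called on withdrawal, at 0.087 in control and 0.17 in miR-125b cells for Bub1b and −0.069 in control and −0.073 in miR-125b cells for Mad2l1; quantile normalization gave 0.36 and 0.45 for Bub1b and 0.24 and 0.24 for Mad2l1. Dimmer probes of Mad2l1 gave 0.075 and 0.057 in control and 0.28 and 0.089 in miR-125b cells. Bub3, the adaptor that brings BUB1 and BUBR1 to kinetochores, was read at 6.32 and 6.32 in control cells with IL-7, 6.17 and 6.16 in miR-125b cells with IL-7, 6.003 and 6.04 in control cells without it, and 5.77 and 5.84 in miR-125b cells without it. All 4 arrays without IL-7 lay below the 4 with it, by −0.30 (SE 0.07, limma adjusted p = 0.0132) in control and −0.36 (SE 0.07, limma adjusted p = 0.00746) in miR-125b cells, although quantile normalization gave 0.072 and 0.029.

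In the chromosomal passenger complex, Birc5, which encodes survivin, was read at 7.82 and 7.77 in control cells with IL-7, 7.62 and 7.62 in miR-125b cells with IL-7, 7.53 and 7.52 in control cells without it, and 7.39 and 7.39 in miR-125b cells without it. The arrays without IL-7 all lay below those with it, by −0.27 (SE 0.06, limma adjusted p = 0.0158) and −0.23 (SE 0.06, limma adjusted p = 0.0293), and further probes of Birc5 gave −0.19 and −0.31 in control cells. With quantile normalization the chosen probe was instead at 0.35 and 0.37. Incenp, the scaffold of the complex, followed the same course at −0.27 in control and −0.26 in miR-125b cells, both called, and 0.29 and 0.29 with quantile normalization. Cdca8, which encodes borealin, was not called, at −0.098 in control and −0.11 in miR-125b cells. Incenp was also among the members called lower with the vector, at −0.27 (SE 0.06, limma adjusted p = 0.0335).

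At the centromere and kinetochore, Cenpa, the histone H3 variant that marks centromeres, was read at 5.91 and 5.82 in control cells with IL-7, 5.83 and 5.66 in miR-125b cells with IL-7, 5.63 and 5.68 in control cells without it, and 5.60 and 5.67 in miR-125b cells without it. It was called in no comparison, at −0.21 in control and −0.11 in miR-125b cells on withdrawal. Cenpe, the plus-end-directed kinetochore motor, was read at 6.39 and 6.396 in control cells with IL-7, 6.18 and 6.03 in miR-125b cells with IL-7, 6.53 and 6.45 in control cells without it, and 6.13 and 6.15 in miR-125b cells without it. All 4 miR-125b arrays lay below all 4 control arrays, at an average difference of −0.32 (SE 0.06, limma adjusted p = 0.0198). Of the 4 subunits of the NDC80 complex, Ndc80 and Spc25 were called lower with the vector, while Nuf2 was at −0.24 (adjusted p = 0.0673) and Spc24 at −0.077 (adjusted p = 0.31). On withdrawal Nuf2 was called lower at −0.36 in control and −0.33 in miR-125b cells, a further probe gave −0.18 and −0.29, and the dimmest of the 3 gave 0.31 and 0.22. Ndc80 was at 0.14 in control and 0.23 in miR-125b cells, which did not pass, Spc25 at −0.094 in control and 0.020 in miR-125b cells and Spc24 at −0.13 in control and −0.10 in miR-125b cells. Cenpk, a partner of CENP-H, was called lower in miR-125b cells (−0.25) and not in control cells (−0.20), and another of its probes gave 0.034 and 0.057.

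Among the spindle motors, Kif11 was read at 3.40 and 3.43 in control cells with IL-7, 3.20 and 3.03 in miR-125b cells with IL-7, 3.58 and 3.58 in control cells without it, and 3.31 and 3.45 in miR-125b cells without it. Its miR-125b arrays lay below its control arrays in each condition (−0.25 (SE 0.06, limma adjusted p = 0.04997) on average), a call lost under 15 of 18 alternatives. Without IL-7 it stood above its level with IL-7 in control cells and in miR-125b cells, by 0.16 and 0.27, which did not pass (adjusted p = 0.167 and 0.0504). Prc1, which bundles microtubules of the central spindle, was read at 5.57 and 5.50 in control cells with IL-7, 5.62 and 5.29 in miR-125b cells with IL-7, 5.55 and 5.59 in control cells without it, and 5.66 and 5.64 in miR-125b cells without it, with the groups of control cells overlapping. Kif4, a chromosome-bound kinesin, was read at 3.13 and 3.21 in control cells with IL-7, 2.94 and 2.92 in miR-125b cells with IL-7, 2.80 and 3.14 in control cells without it, and 2.95 and 3.096 in miR-125b cells without it.

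Kif4 had the largest difference between the withdrawal responses of miR-125b and control cells, 0.29 (SE 0.18), and its arrays overlapped on withdrawal in control cells. Nusap1, a microtubule-bundling protein, was read at 5.92 and 5.94 in control cells with IL-7, 5.63 and 5.46 in miR-125b cells with IL-7, 5.82 and 5.84 in control cells without it, and 5.60 and 5.71 in miR-125b cells without it. Its miR-125b arrays lay below its control arrays in each condition, by −0.28 (SE 0.06, limma adjusted p = 0.0341) on average, and it was not called on withdrawal (−0.098 in control and 0.11 in miR-125b cells). Kif20a, a motor of cytokinesis, was called lower with the vector (−0.24) and on withdrawal in control cells (−0.24, or 0.032 with quantile normalization). Kif2c, a microtubule depolymerase at the centromere, was called lower on withdrawal in control cells (−0.28) and not in miR-125b cells (−0.20). Kif23, Ect2 and Hmmr, which act in cytokinesis (the first 2) and on the spindle, were called in no comparison. Their values without minus with IL-7 in control cells were 0.19, −0.031 and −0.11, although a dimmer probe of Kif23 gave 1.26 and a dimmer probe of Ect2 gave 0.98.

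At mitotic exit, Espl1, the protease that cleaves cohesin, was read at 3.63 and 3.74 in control cells with IL-7, 3.64 and 3.50 in miR-125b cells with IL-7, 3.71 and 3.72 in control cells without it, and 3.48 and 3.59 in miR-125b cells without it. The withdrawal groups overlapped in both cell types, and the differences were 0.032 in control and −0.039 in miR-125b cells. Ube2c was called lower in control cells (−0.35, with −0.37 at a further probe, but 0.011 with quantile normalization) and was at −0.21 in miR-125b cells (adjusted p = 0.121). Pttg1, which encodes securin, was at −0.20 in control and −0.22 in miR-125b cells, neither called. Cdc20 was thus the exit gene called in both cell types, and with quantile normalization it was at −0.014 and −0.013, not called. With the vector 0 of these 4 genes were called in any of the 3 comparisons.

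The remaining pair marks proliferating cells at large. Top2a, which untangles sister chromatids, was read at 5.79 and 5.82 in control cells with IL-7, 5.56 and 5.51 in miR-125b cells with IL-7, 5.78 and 5.87 in control cells without it, and 5.65 and 5.78 in miR-125b cells without it. Mki67, the Ki-67 antigen of cycling cells, was read at 7.34 and 7.57 in control cells with IL-7, 7.16 and 7.17 in miR-125b cells with IL-7, 7.70 and 7.55 in control cells without it, and 7.29 and 7.43 in miR-125b cells without it. Neither was called lower or higher on withdrawal at this scaling, at 0.023 in control and 0.18 in miR-125b cells for Top2a and 0.17 in control and 0.20 in miR-125b cells for Mki67. With quantile normalization both genes were called higher in both cell types, Top2a at 0.38 and 0.54 and Mki67 at 0.79 and 0.76. The miR-125b arrays of Mki67 lay below its control arrays in each condition, at −0.28 on average (adjusted p = 0.0636). A further Mki67 probe gave −0.25 with IL-7, 0.041 without it and −0.11 on average.

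**Figure D4:**
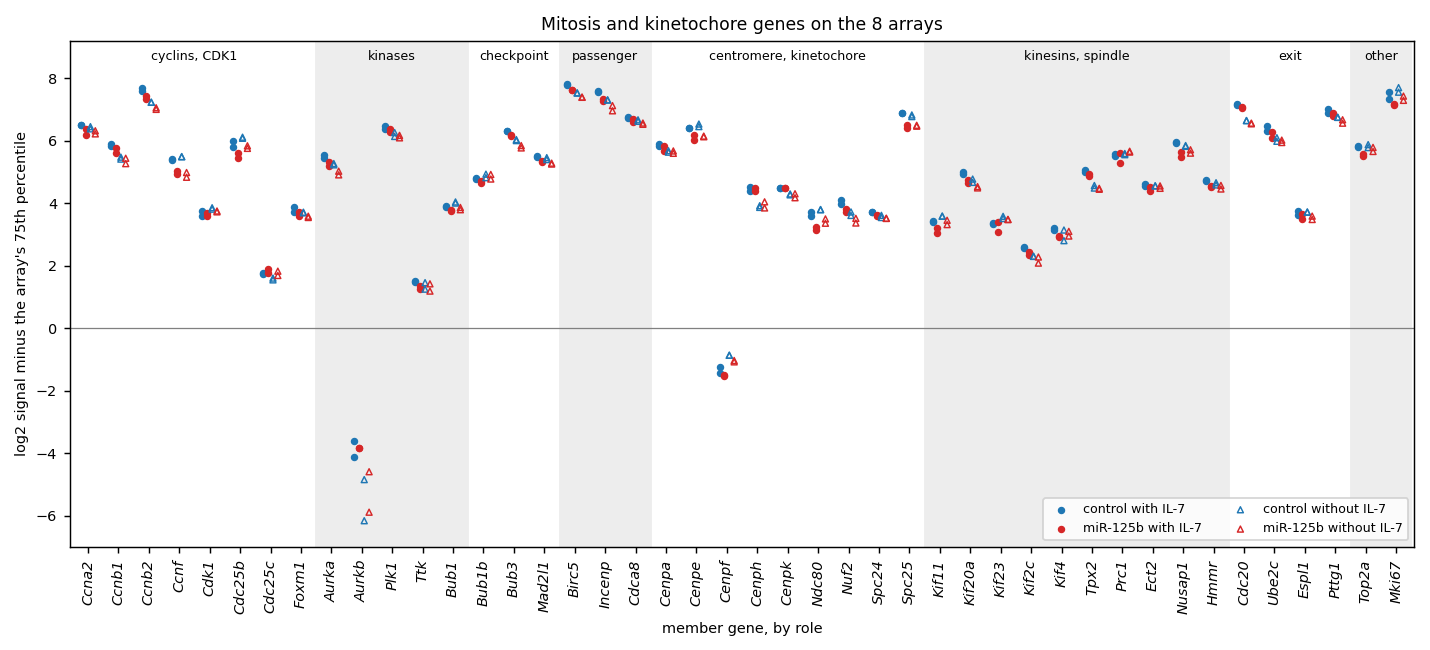
Level of each of the 44 genes on the 8 arrays as log2 signal minus the array's 75th percentile, grouped by role, with control cells in blue, miR-125b cells in red, filled circles with IL-7 and open triangles without it. Each point is 1 array; the points of Ccnf, Ndc80 and Spc25 separate by colour and those of Cenph, Cdc20 and Tpx2 by shape at this scaling, while levels of different genes come from different probes and are not comparable.

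The arrays of the groups compared did not overlap for 35 of 44 members for the vector with IL-7, where 50.1% of all genes did not overlap, and for 32 without IL-7 (60.8% of all genes). On withdrawal they did not overlap for 38 members in control cells (81.2%) and 32 in miR-125b cells (79.5%). A difference between the withdrawal responses of miR-125b and control cells could not be judged for any member, since this test made no call on simulated differences of the sizes tried either. On these data limma called 0% of genes, 0 of 20615, with 1204 at an unadjusted p under 0.05. After Kif4 the largest differences were those of Aurkb (0.23, SE 0.80) and Nusap1 (0.21, SE 0.12).

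The members were also read by their promoter letters. The median difference of the vector average was −0.15 over the 25 members with a CHR and −0.16 over the 11 without. On withdrawal in control cells the medians were −0.094 and −0.20, and in miR-125b cells 0.013 and −0.22. These values are a description and were not tested.

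Other mitosis genes outside the 44 were counted by list at the same scaling, with the quantile-normalized counts beside them. Of all genes, 20.2% were called higher and 34% lower on withdrawal in control cells, and 20.5% and 32% in miR-125b cells. With quantile normalization these shares were 23.8% and 27.8% in control cells and 22.6% and 24.4% in miR-125b cells. Of 17 genes of the anaphase-promoting complex and its partners, 0 higher and 8 lower were called on withdrawal in control cells and 1 higher and 10 lower in miR-125b cells, against 3 higher and 5 lower, and 2 higher and 3 lower. The subunit gene Anapc15 fell by 0.83 (SE 0.10, adjusted p = 0.00194) in control cells and was below 0 and called under all 6 scalings and background corrections. Of 41 further centromere and kinetochore genes, 5 higher and 12 lower were called in control cells and 6 higher and 10 lower in miR-125b cells, against 10 higher and 7 lower, and 9 higher and 4 lower. Cenpv, a factor of centromere chromatin, was at −1.43 (SE 0.16, adjusted p = 0.00182) and −0.97 (SE 0.16, adjusted p = 0.00531), and Cenpb, which binds centromeric repeats, at −1.12 (SE 0.15, adjusted p = 0.00241) in control cells; all were called under the 6 settings.

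Of 36 further spindle and cytokinesis genes, 4 higher and 8 lower were called in control cells and 7 higher and 8 lower in miR-125b cells, against 13 higher and 1 lower, and 12 higher and 1 lower. Kifc1, a minus-end-directed kinesin, was at −0.90 (SE 0.18, adjusted p = 0.00973) and −0.97 (SE 0.18, adjusted p = 0.00804), whereas Aspm, a spindle pole protein, was at 0.83 (SE 0.08, adjusted p = 0.00152) and Kif14, a motor of cytokinesis, at 0.84 (SE 0.17, adjusted p = 0.00924) in miR-125b cells. These kept their direction and their call under all 6 settings. Of 18 condensin and cohesin genes, 2 higher and 2 lower were called in control cells and 2 higher and 3 lower in miR-125b cells, against 12 higher and 0 lower, and 10 higher and 1 lower. Of 27 other G2/M regulators, 7 higher and 6 lower, and 6 higher and 3 lower were called, against 15 higher and 1 lower, and 16 higher and 0 lower; the pocket protein gene Rbl2 rose by 0.65 (SE 0.09, adjusted p = 0.00264) in control cells and 0.68 (SE 0.09, adjusted p = 0.00285) in miR-125b cells.

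With the vector, in the average of both conditions, these lists gave 0 higher and 3 lower (anaphase-promoting complex), 3 higher and 6 lower (centromere and kinetochore), 0 higher and 5 lower (spindle and cytokinesis), 1 higher and 6 lower (condensin and cohesin), and 2 higher and 9 lower (G2/M regulators). Their medians were −0.058, −0.13, −0.15, −0.16 and −0.13, in that order, against −0.025 over all genes. Of all genes, 7.29% were called higher and 8.63% lower in that average. Scaled to the array median the counts were 0 higher and 0 lower, 4 higher and 0 lower, 0 higher and 0 lower, 1 higher and 0 lower, and 2 higher and 2 lower. At that scaling 2.7% of all genes were called lower, and the share called higher is not given. The repressor genes E2f7 and E2f8, named here after their values were seen, were at −0.64 (SE 0.05, adjusted p = 0.00303) and −0.54 (SE 0.05, adjusted p = 0.00485), and both were called lower under all 6 settings.

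**Figure D5:**
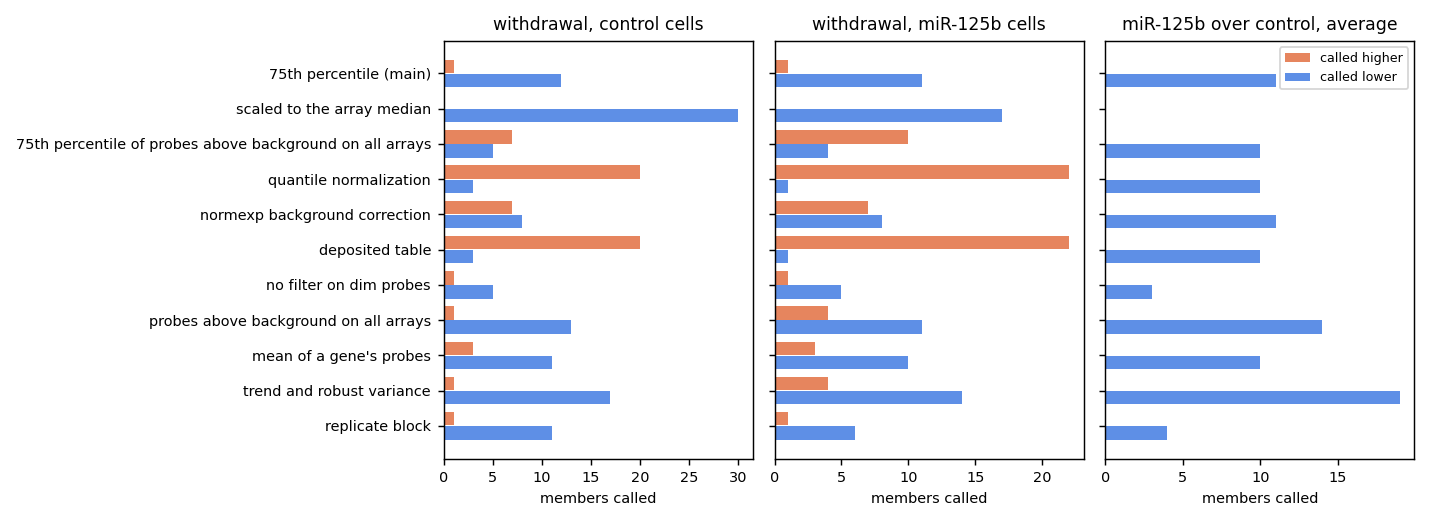
Number of the 44 members called higher (orange) or lower (blue) at an adjusted p under 0.05, on the horizontal axis, under the 75th percentile scaling and 10 alternatives, in 3 panels: withdrawal for control cells, the same for miR-125b cells, and the vector average. On withdrawal the calls are mostly lower with the array median (30 and 17) and mostly higher with quantile normalization (20 and 22), while every call in the vector average is lower and the array median gives 0.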

How the data were processed

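RNA abundance in the 8 samples was measured on single-colour Agilent arrays of 60-base probes, from 100 ng of total RNA per the labels' protocols. Per the file headers, the deposited processed signal is an intensity on a linear scale, background-subtracted and not normalized between arrays, and the deposited marks per spot (other, coded 0 or 1: whether a spot is saturated, non-uniform or well above background) come from Agilent Feature Extraction 10.7.3.1 (with IL-7) and 10.7.1.1 (without); the submitters' processing notes name 10.7.1.1. The authors' deposited table gives intensity values, and the scanner values of the same arrays correlated with it on the log2 scale at r of at least 0.999, with a median of 21.7 in each column; its normalization is not given in the sources used here. No columns of other series are among the files (0). The scanner files give the probe positions, on mm9.

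Of 62976 spots, 3671 controls were left out and spots of a probe were averaged (55681 probes). Of these probes, 58 were dropped because all their spots on an array were flagged as non-uniform or as outliers. Signals were log2-transformed and scaled to each array's 75th percentile. A probe was kept if well above background on both arrays of a group (29811 probes), and the brightest kept probe stood for a gene (20615 genes, named through RefSeq where matched: 27267 probes by accession, 5249 by symbol, 789 by synonym). Spots had 0 saturated readings. A mean per group was fitted over all 8 arrays with limma 3.58.1 (lmFit, eBayes; R 4.3.3; 4 residual degrees of freedom), with Benjamini-Hochberg adjustment over all genes of a comparison. A gene was called at an adjusted p under 0.05, two-sided. The number of arrays, 2 a group, limits the precision. The script was tested on simulated data.

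The members and lists were chosen with earlier results of these data known, and 1 marker gene is not reported here. Values on all 8 arrays are given for 16 genes set by role, for the 5 called members with the largest change in each comparison, for members called against the majority and, where fewer than 3 were called, for the 3 with the largest change; of the wider lists, up to 2 called genes per list and withdrawal comparison are named. Alternatives were 5 other scalings, corrections or sources of values, filters, probe choice, variance model, the arrays in the fit, the replicate number as a block, and each array left out.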

Additional observations from a re-analysis of the deposited data

How the results depend on the processing

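The counts and medians that follow replace main values of 1, 1, 11, 13 and 12 members called (vector with IL-7, without IL-7 and on average; withdrawal for control, then for miR-125b cells) and member medians of −0.17, −0.13, −0.15, −0.12 and −0.080. Scaled to the array median, members called came to 0 (vector with IL-7), 0 (vector without IL-7), 0 (vector average), 30 (withdrawal, control cells) and member medians were −0.072 (vector with IL-7), 0.059 (vector without IL-7), −0.0079 (vector average), −0.46 (withdrawal, control cells), −0.33 (withdrawal, miR-125b cells), 0.14 (difference of responses). With the 75th percentile of probes above background on all arrays, member medians were 0.020 (withdrawal, control cells), 0.081 (withdrawal, miR-125b cells). With quantile normalization, members called came to 0 (vector with IL-7), 23 (withdrawal, control cells), 23 (withdrawal, miR-125b cells) and member medians were 0.22 (withdrawal, control cells), 0.25 (withdrawal, miR-125b cells) and member medians relative to all genes were 0.26 (withdrawal, control cells), 0.28 (withdrawal, miR-125b cells). In the authors' deposited table, members called came to 0 (vector with IL-7), 23 (withdrawal, control cells), 23 (withdrawal, miR-125b cells) and member medians were 0.22 (withdrawal, control cells), 0.25 (withdrawal, miR-125b cells) and member medians relative to all genes were 0.26 (withdrawal, control cells), 0.27 (withdrawal, miR-125b cells). With normexp correction, members called came to 3 (vector with IL-7), 4 (vector without IL-7) and member medians were −0.024 (withdrawal, control cells), 0.042 (withdrawal, miR-125b cells) and member medians relative to all genes were 0.21 (withdrawal, control cells), 0.28 (withdrawal, miR-125b cells). Without a filter on dim probes, members called came to 0 (vector with IL-7), 0 (vector without IL-7), 3 (vector average), 6 (withdrawal, control cells), 6 (withdrawal, miR-125b cells) and member medians relative to all genes were 0.0037 (vector without IL-7), −0.028 (vector average), −0.24 (withdrawal, control cells). With probes above background on all arrays, members called came to 3 (vector with IL-7), 4 (vector without IL-7). With trended, robust variance, members called came to 6 (vector with IL-7), 5 (vector without IL-7), 19 (vector average). With only the 4 arrays compared, members called came to 0 (vector with IL-7), 0 (vector without IL-7), 8 (withdrawal, control cells), 6 (withdrawal, miR-125b cells). With the replicate number as a block, members called came to 0 (vector with IL-7), 0 (vector without IL-7), 4 (vector average), 7 (withdrawal, miR-125b cells). The share of all genes called also changes between fits. In the vector average 8.63% were called lower in the main fit, 2.7% scaled to the array median and 2.63% without the filter on dim probes. No share of all genes is given for trended variance, probes above background on all arrays, the 4 arrays compared or the replicate block. The same holds for the vector within a single condition under every alternative, and for withdrawal without the filter on dim probes. A change of count in these cases is therefore not a result about the members. With 1 array left out, the lone array is assumed to vary like the other groups, so counts of calls from those fits are not given. Member medians then ranged over −0.21 to −0.13 (vector with IL-7), −0.17 to −0.10 (vector without), −0.17 to −0.13 (average), −0.16 to −0.080 and −0.12 to −0.027 (withdrawal, control and miR-125b cells), and 0.0056 to 0.085 (difference of responses). Relative to all genes they ranged, in that order, over −0.19 to −0.084, −0.17 to −0.089, −0.15 to −0.094, −0.018 to 0.033, −0.013 to 0.092, −0.030 to 0.082. Members whose sign turned with a call were, with quantile normalization in control cells, Birc5 0.35, Bub3 0.072, Ccna2 0.33, Ccnb2 0.14, Cdca8 0.37, Ect2 0.23, Incenp 0.29, Kif20a 0.032, Mad2l1 0.24, Pttg1 0.31, Spc25 0.41, Ube2c 0.011; in miR-125b cells, Aurka 0.0029, Birc5 0.37, Bub3 0.029, Ccna2 0.41, Ccnb2 0.18, Cdca8 0.37, Cenpk 0.0099, Hmmr 0.25, Incenp 0.29, Mad2l1 0.24, Pttg1 0.28. In the deposited table they were, in control cells, Birc5 0.35, Bub3 0.075, Ccna2 0.32, Ccnb2 0.15, Cdca8 0.37, Ect2 0.23, Incenp 0.29, Kif20a 0.035, Mad2l1 0.25, Pttg1 0.32, Spc25 0.41, Ube2c 0.014; in miR-125b cells, Aurka 0.0081, Birc5 0.37, Bub3 0.034, Ccna2 0.42, Ccnb2 0.19, Cdca8 0.37, Cenpk 0.013, Hmmr 0.25, Incenp 0.29, Mad2l1 0.24, Pttg1 0.28. The mean of a gene's probes turned Ect2 in control cells to 0.48. Some fits hold fewer arrays and some another number of genes, and the cause of these changes was not tested. Of the members called, 1 of 1, 1 of 1, 11 of 11, 12 of 13, 11 of 12 lost the call under at least 1 alternative, and 1, 0, 7, 2, 6 of them under more than 50%. Same-numbered arrays deviated from their group means with correlations of −0.0982 to 0.115. The design text speaks of 2 independent experiments, and no label ties the numbers to them. The samples thus share only a number, and the block changed no direction of a called member. Between 47.7% and 54.8% of probes were well above background, and Aurkb was limited by its background.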
